A study of Mus musculus with 14 samples.

Results

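The cyclin-dependent kinase inhibitors and senescence genes described here are 10 genes: Cdkn1a, Cdkn1b, Cdkn1c, Cdkn2a, Cdkn2b, Cdkn2c, Trp53, Mdm2, Gdf15 and Lmnb1. They were chosen by name, for their known roles, with earlier results of these data known. Each was matched through its RefSeq transcript to 1 of the 23930 targets of an amplicon panel. All 10 had a target and all 10 had enough reads to be tested. Liver sinusoidal endothelial cells (LSECs), the fenestrated endothelium of the liver, had been sorted from female wild-type C57BL/6J mice by low CD45 and high STAB2 and CD146. Aged mice (10 to 11 months) gave 7 libraries and young mice (8 to 10 weeks) gave 7, in experiment 1 with 3 libraries per age and experiment 2 with 4 per age. No group carried a transgene or a treatment, and a library is named by age, experiment and replicate, so that young 2.4 is the young replicate 4 of experiment 2. The labels do not state that each library is a separate mouse, so a p-value here speaks only of the spread among these libraries, some of which may be technical.

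Cyclin-dependent kinases drive a cell through the division cycle, and their inhibitors hold it back. The Cip/Kip inhibitors p21, p27 and p57 (Cdkn1a, Cdkn1b, Cdkn1c) bind several cyclin-kinase complexes, while the INK4 inhibitors p16, p15 and p18 (Cdkn2a, Cdkn2b, Cdkn2c) bind CDK4 and CDK6. The transcription factor p53 (Trp53) induces p21 after DNA damage and is held low by the ubiquitin ligase MDM2, which is itself a p53 target. Gain of p16 and p21 and loss of lamin B1 (Lmnb1) are widely used as marks of senescence, a lasting arrest of division, and Gdf15 encodes a secreted stress cytokine.

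Promoter sequences from RefSeq (GRCm38.p6) were found for 8 of the 10 genes, in 12 windows of 250 bases before to 50 bases after a transcription start. Cdkn1a is shown because its level set it apart among the members, and its 2 starts differ in sequence. The upstream start, that of the transcript after which the counted target is named, holds a 20-base p53 response element, in capitals, 51 to 32 bases before the start; chr17:29090729-29090978, plus strand:
Cdkn1a upstream start: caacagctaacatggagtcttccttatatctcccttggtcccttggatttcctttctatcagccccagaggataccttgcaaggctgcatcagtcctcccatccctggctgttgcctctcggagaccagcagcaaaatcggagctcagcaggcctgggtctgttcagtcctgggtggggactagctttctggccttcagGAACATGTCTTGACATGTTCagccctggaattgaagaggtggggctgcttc
The downstream start holds 2 GC boxes (GGGCGG, the core bound by SP1-type factors), in capitals; chr17:29093519-29093768, plus strand:
Cdkn1a downstream start: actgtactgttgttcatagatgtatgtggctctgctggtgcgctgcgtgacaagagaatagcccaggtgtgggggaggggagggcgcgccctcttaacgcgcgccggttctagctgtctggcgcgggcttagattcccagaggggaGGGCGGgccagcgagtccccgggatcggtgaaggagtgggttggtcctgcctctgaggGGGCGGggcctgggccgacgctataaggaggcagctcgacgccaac
Cdkn2c is shown for contrast, as a well-counted inhibitor whose levels overlapped between the ages; its first start holds 3 GC boxes in the stretch printed; chr4:109666757-109667006, minus strand:
Cdkn2c first start: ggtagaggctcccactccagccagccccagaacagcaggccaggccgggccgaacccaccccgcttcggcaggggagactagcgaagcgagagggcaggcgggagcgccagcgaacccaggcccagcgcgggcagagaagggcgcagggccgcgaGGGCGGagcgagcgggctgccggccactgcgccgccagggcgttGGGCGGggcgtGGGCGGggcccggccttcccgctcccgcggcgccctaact
On both strands, the p53 element, searched as adjoining repeats with their C and G cores intact and at most 1 other base differing, was found in 1 of the 12 member windows and in 22 of all 32851 windows of this length (0.067%). This definition was chosen after the data had been seen, and the Cdkn1a element uses the 1 difference it allows. The share therefore does not measure how unusual the match at Cdkn1a is. The GC box occurred in 35.7% of all windows, and its matches at Cdkn1a and Cdkn2c are of a common kind. The E-box CACGTG was found in 7.15% of all windows, among them those of Trp53, the second start of Cdkn2c and the second start of Gdf15, and the forkhead core TGTTTAC in 3.65%, among them that of Mdm2. No p53 element in the Mdm2 window says only that these letters do not stand in it. A match describes the sequence and shows neither binding nor a cause, and since the position of the Cdkn1a amplicon is not known here, its counts cannot be assigned to 1 start.

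Reads on gene targets ran from 6710403 to 13977361 per library, and levels are given as CPM, the counts of a target set to a common library size after scaling by the trimmed mean of M values. Of 13 LSEC markers 12 had at least 162 CPM in every library, Stab2 among them at 1711 to 2251 CPM, while Fcgr2b ran from 18.9 to 56.5 CPM. Lyve1 (334 to 2059 CPM, log2 fold change -0.65) and Mcam, the gene of the sort marker CD146 (199 to 784 CPM, -0.53), had lower estimates in aged libraries, and 0 of the 13 were called by edgeR (1 higher and 2 lower at an unadjusted p under 0.05). Of all tested targets 4.41% were higher and 2.98% lower at that threshold. Before the results, 3 features of the libraries need to be set out. Young 2.4 and aged 2.4 held the most Mki67, a marker of dividing cells, at 122 and 63.6 CPM, followed by young 2.3 at 44.5 CPM, against 5.77 to 18.5 CPM in the other 11 libraries. Most markers of blood cells had higher estimates in aged libraries, and aged 1.3 also held the most hepatocyte transcript. Targets of taste, vomeronasal and olfactory receptors, which LSECs are not known to express, held 0.146 to 3.18% of gene reads. Each target is 1 amplicon of its own efficiency, so levels are compared between libraries and not between genes.

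None of the 10 genes differed between aged and young LSECs over both experiments at an adjusted p under 0.05 in edgeR's quasi-likelihood test, where 0.224% of 15184 tested targets did. At an unadjusted p under 0.05 there was 1, Cdkn1a, lower in aged cells, against 2.98% of all targets in that direction and 4.41% in the other. DESeq2 called 1 member, again Cdkn1a, with 0.955% of its 14973 targets called (143), and limma-voom called 0 members, with 0.244% of all targets called (37). The point estimates were higher in aged cells for 6 genes and lower for 4, with a median log2 fold change of 0.08 against 0.02 over all tested targets. Within experiment 1 the same test called 0 members (0 also at an unadjusted p under 0.05, which 6.65% of all targets passed, and 0 by DESeq2 and limma-voom; 0% of all targets called). Within experiment 2 it called 0 (1 unadjusted, Cdkn1a, against 3.42% of all targets, and 0 by either other tool; 0.0198% of all targets called). The difference of the age effect between the experiments was called for 0 members (0 unadjusted and 0 by either other tool; 0% of all targets called). In these counts of whole sorted populations, fewer cells that express a gene and less RNA per cell cannot be told apart.

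Cdkn1a, which encodes p21, was the member with the clearest separation by age. In experiment 1 the aged libraries held 76.5, 73.6 and 65.9 CPM and the young ones 138, 82.9 and 84.9 CPM. In experiment 2 the aged libraries held 80.9, 60.8, 61.9 and 76.3 CPM and the young ones 84.4, 91.9, 197 and 143 CPM. The 7 aged libraries thus all lay under the 7 young ones, by a narrow margin at the nearest pair, and they varied little among themselves while young 1.1, 2.3 and 2.4 stood well above the other 4 young libraries. The same order, with no overlap, held with size factors of DESeq2 (highest aged 80.3, lowest young 83.3 CPM) and with no scaling beyond library size (79.4 and 81.4 CPM). Such a separation, 7 aged under 7 young, was found for 0.158% of all tested targets. The means were 70.9 ± 7.92 CPM in aged and 117 ± 43.7 CPM in young cells (SD, n = 7 each), a level 1.65-fold lower in aged cells (95% interval 1.24 to 2.19). The log2 fold change of -0.72 (SE 0.19) had an unadjusted p of 0.00233, the 111th smallest among all targets, and an adjusted p of 0.319 in edgeR. DESeq2 gave -0.75 (SE 0.20) with an adjusted p of 0.0289, so the call rests on the choice of tool.

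The estimates for Cdkn1a had the same direction in both experiments, with log2 fold changes of -0.50 (SE 0.29) in experiment 1 and -0.88 (SE 0.26) in experiment 2. Without young 1.1 the value of experiment 1 was -0.22. Their difference, -0.38 (SE 0.39), did not pass edgeR's test (adjusted p = 1), and its interval, -1.22 to 0.46, allows either experiment to have the larger effect. Leaving out any 1 library kept the log2 fold change between -0.83 and -0.56, with adjusted p from 0.128 to 0.707 in edgeR. Over all 28 alternatives it lay between -0.83 and -0.47, with adjusted p from 0.0289 to 1.

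**Figure D1:**
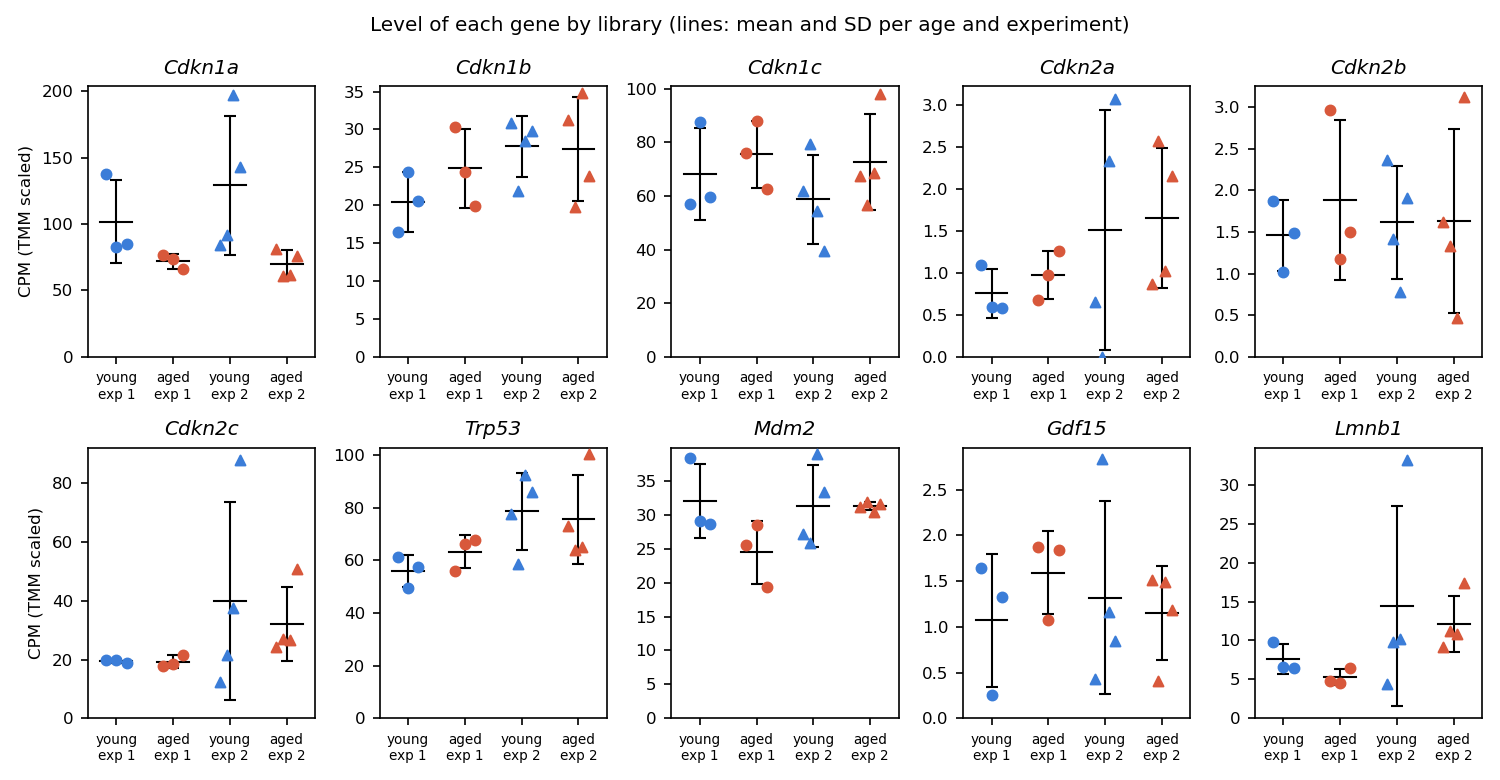
Level of each of the 10 genes in the 14 libraries, in CPM on a linear axis from 0, with each age and experiment apart and lines for its mean and SD. The 7 aged libraries lie between 60.8 and 80.9 CPM for Cdkn1a, under all 7 young ones at 82.9 to 197 CPM, and the ages overlap for the other 9 genes.

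Transcripts of the immediate early genes, which cells switch on rapidly when stimulated or stressed, stood beside Cdkn1a in these libraries. The list was drawn up after the data had been seen. Of its 12 genes 11 were tested, and all 11 had lower estimates in aged cells, with a median log2 fold change of -0.81 and 0 called by edgeR. Egr1, a transcription factor gene of this kind, averaged 3056 ± 2654 CPM in young and 1108 ± 606 CPM in aged cells (SD, n = 7 each). Atf3 averaged 232 ± 204 and 43.8 ± 31.3 CPM. Egr1 stood at 6843, 5358 and 5050 CPM in young 1.1, 2.3 and 2.4. In the other young libraries it ran from 125 to 2077 CPM, overlapping the aged ones at 107 to 1849 CPM. The score of the list, a mean of log2 CPM, was highest in young 2.3 (9.63), young 1.1 (9.54) and young 2.4 (9.46), the same 3 libraries with the most Cdkn1a, and lowest in young 2.2 (6.10), whose Cdkn1a, 91.9 CPM, was the median of the young libraries.

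Within age and experiment, Cdkn1a and this score correlated over the 14 libraries with Pearson's r of 0.747 (permutation p = 0.0423) and Spearman's rho of 0.785 (permutation p = 0.0263). Adjusted over the 50 relations computed between members and library scores, these p-values were 0.372 and 0.283, so the relation did not pass. Without the 2 libraries farthest from the median score, aged 2.2 and young 2.2, r was 0.832, and it was 0.928 within experiment 1 and 0.729 within experiment 2. Without the 3 libraries of the highest scores, which stand apart from the other 11, r was 0.24 over those 11, so the relation rests on these 3 libraries. Mdm2 had an r of 0.687 and a rho of 0.71 with the score (permutation p = 0.0132 and 0.0237, adjusted 0.221 and 0.283), and an r of 0.265 without the same 3 libraries. With the score as a term, the log2 fold change of Cdkn1a was -0.47 with an adjusted p of 0.752 in edgeR. The part of the immediate early genes in the difference of Cdkn1a was not tested beyond these values.

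Markers of blood cells, hepatocytes and other liver cells were measured beside the members. With a term for leukocyte markers the log2 fold change of Cdkn1a was -0.59 (adjusted p = 1 in edgeR), and with a term for receptor reads it was -0.71 (adjusted p = 0.172). All 11 tested Kupffer cell markers had higher estimates in aged libraries, 0 of them called, with summed levels of 61.0 to 334 CPM in aged and 55.4 to 145 CPM in young libraries. For the 7 markers of B and plasma cells the sums were 4.84 to 373 CPM and 1.80 to 68.8 CPM, for the 10 of T and NK cells 6.37 to 521 CPM and 2.33 to 222 CPM, and for the 8 of monocytes and neutrophils 45.3 to 1813 CPM and 49.2 to 542 CPM. At an unadjusted p under 0.05 in edgeR, 9 Kupffer cell and 6 B and plasma cell markers were higher in aged libraries. So were 5 of monocytes and neutrophils and 1 of T and NK cells, and 0 were lower. At that threshold 4.41% of all targets were higher. Median log2 fold changes were 1.61, 3.27, 1.97 and 1.17 in the same order, against 0.02 over all tested targets. The T and NK cell median was 3.88 in experiment 1 and -0.34 in experiment 2. No marker was at 0 in all libraries of an age; C1qa had no read in 6 of the 7 aged and 6 of the 7 young libraries. Hepatocyte markers summed to 575 to 7938 CPM in aged and 476 to 2205 CPM in young libraries, with aged 1.3 the highest, where Cdkn1a stood at 65.9 CPM. Sums of stellate cell (152 to 863 and 184 to 521 CPM), cholangiocyte (20.2 to 801 and 14.1 to 225 CPM) and capillary endothelial markers (1624 to 2406 and 1938 to 3274 CPM) overlapped between the ages. Within age and experiment, Cdkn1a had an r of -0.404 with the leukocyte score (permutation p = 0.118, adjusted over 50 relations 0.49; rho = -0.446, p = 0.107, adjusted 0.446) and of -0.0816 with the hepatocyte score (permutation p = 0.791, adjusted 0.919; rho = 0.0022, p = 1, adjusted 1). Among the 10 genes the adjusted p of r with these scores was lowest for Cdkn2c and leukocytes, at 0.281 (permutation test, r = -0.586), and that relation did not hold within the experiments, with an r of 0.928 in experiment 1 and -0.823 in experiment 2. For Cdkn1a the r with the leukocyte score was -0.166 in experiment 1 and -0.519 in experiment 2, and -0.383 without the 2 libraries farthest from the median score. With the hepatocyte score these values were -0.051, -0.149 and 0.0538. The part of the other cell types in the members' levels was not tested.

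The other Cip/Kip inhibitors did not follow Cdkn1a. Cdkn1b, which encodes p27, an inhibitor held high in resting cells, ran from 19.8 to 34.8 CPM in aged libraries (median 24.4) and from 16.5 to 30.9 CPM in young ones (median 24.3). The ranges cover each other almost whole. Its log2 fold change was 0.11 (SE 0.17), and the 95% interval of the fold, 0.835 to 1.40, does not hold a fold change of the size estimated for Cdkn1a. Cdkn1c, which encodes p57 and is expressed from the maternal allele, ran from 56.7 to 98.1 CPM in aged libraries (median 68.5) and from 39.5 to 87.8 CPM in young ones (median 59.7). Of the 7 aged libraries 5 exceeded the mean of the young ones run with them, with a log2 fold change of 0.24 (SE 0.17), a fold interval of 0.918 to 1.52 and an adjusted p of 0.955 in edgeR. The 2 libraries with the least Cdkn1c, young 2.4 (39.5 CPM) and young 2.3 (54.5 CPM), were the 2 with the most Cdkn1a, although over all libraries the 2 genes had an r of only -0.328 within age and experiment.

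Among the INK4 inhibitors, Cdkn2c (p18) had reads enough in every library, and its highest libraries were those with the most Mki67. In experiment 1 its levels were 17.7, 18.6 and 21.7 CPM in aged and 19.99, 19.85 and 18.76 CPM in young libraries, nearly the same. In experiment 2 they were 24.3, 26.9, 26.6 and 50.7 CPM in aged and 12.4, 21.7, 37.5 and 88.1 CPM in young libraries, so both the highest and the lowest value of the study were young. Cdkn2c lay at or under the median of the receptor targets, a rough gauge of background, in 3 of 14 libraries. These were aged 1.1 (17.7 against 22.6 CPM), young 1.1 (19.99 against 21.7 CPM) and young 1.3 (18.76 against 18.8 CPM). The likeness of the ages in experiment 1 is thus partly between levels near that gauge. The log2 fold change was -0.19 (SE 0.35), with a fold interval of 0.524 to 1.47. Young 2.4 and aged 2.4 were the highest of their ages, as they were for Mki67. Within age and experiment Cdkn2c correlated with a score of 20 proliferation genes at r = 0.937 (permutation p = 0.00463, adjusted over 50 relations 0.155) and rho = 0.767 (permutation p = 0.0129, adjusted 0.283), with r = 0.53 in experiment 1 and 0.946 in experiment 2. Without aged 2.4 and young 2.4, the 2 libraries farthest from the median score, r was 0.767. Without both of these libraries the log2 fold change of Cdkn2c was 0.05, of the opposite sign.

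Cdkn2a and Cdkn2b, neighbours on the chromosome, had few reads. Cdkn2a had 0 to 29 reads per library, from 0.679 to 2.56 CPM in aged (median 1.02) and from 0 to 3.07 CPM in young libraries (median 0.646). The library with 0 reads, young 2.2, was the shallowest, and a count of 0 there (3 reads, for counting error only) allows up to 0.425 CPM. The 3 highest levels were split between the ages, in young 2.4, aged 2.2 and young 2.3. Cdkn2b had 6 to 35 reads, from 0.472 to 3.12 CPM in aged (median 1.5) and from 0.776 to 2.37 CPM in young libraries (median 1.49). The fold intervals, 0.478 to 2.84 for Cdkn2a and 0.604 to 2.06 for Cdkn2b, are wide and include a doubling. As a rough gauge of background, since amplicons differ in efficiency, the median of the 1325 receptor targets ran from 1.02 to 22.6 CPM by library. Cdkn2a lay at or under the median of its own library in 12 of 14 libraries and Cdkn2b in 14 of 14. Within age and experiment, Cdkn2b correlated with the log2 share of receptor reads at r = 0.671 (permutation p = 0.0536, adjusted over 50 relations 0.372). Its rho was 0.648 (permutation p = 0.0295, adjusted 0.283), with r = 0.675 in experiment 1 and 0.695 in experiment 2. For Cdkn2a r was -0.326 (permutation p = 0.418, adjusted 0.703). For Cdkn1b it was -0.62 (permutation p = 0.0466, adjusted 0.372), so none of these relations passed. The Cdkn2a locus encodes p16 and, from an upstream first exon, p19ARF; the target is named for a p16 transcript, but the amplicon's position is not given in the sources used here, so the 2 products cannot be told apart.

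Trp53 was the steadiest member but for Mdm2. It ran from 56.1 to 100.3 CPM in aged libraries (median 66.1) and from 49.4 to 92.4 CPM in young ones (median 61.4), with aged 2.4 the highest of all. Means were 70.3 ± 14.2 CPM and 69.0 ± 16.3 CPM (SD, n = 7 each), the log2 fold change was 0.04 (SE 0.13) and the fold interval 0.852 to 1.24. A change of the size estimated for Cdkn1a lies outside that interval. The values measure the transcript, and p53 is controlled mainly as a protein. Mdm2, the ubiquitin ligase that marks p53 for destruction, held 25.5, 28.5 and 19.4 CPM in aged and 38.3, 29.1 and 28.6 CPM in young libraries of experiment 1. In experiment 2 it held 31.2, 31.9, 30.4 and 31.5 CPM in aged and 27.2, 25.8, 38.9 and 33.3 CPM in young libraries. The ages did not overlap in experiment 1, aged 1.2 lying just under young 1.3, as was so for 9.06% of all targets with aged libraries lower, and overlapped in experiment 2, where the 4 aged libraries were almost equal. Log2 fold changes were -0.39 (SE 0.22) in experiment 1 and -0.00 (SE 0.19) in experiment 2, their difference did not pass edgeR's test (adjusted p = 1), and over both the value was -0.17 (SE 0.14).

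Gdf15, the secreted stress cytokine, had 3 to 22 reads per library, from 0.410 to 1.87 CPM in aged (median 1.49) and from 0.253 to 2.83 CPM in young libraries (median 1.16). It lay at or under the receptor median of its library in 13 of 14 libraries. The log2 fold change was 0.15 (SE 0.50), with a fold interval of 0.53 to 2.34.

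Lmnb1, which encodes a protein of the nuclear lamina, held 4.76, 4.59 and 6.43 CPM in aged and 9.84, 6.59 and 6.53 CPM in young libraries of experiment 1. In experiment 2 the aged libraries held 9.17, 11.2, 10.8 and 17.3 CPM and the young ones 4.45, 9.77, 10.2 and 33.2 CPM. The ages did not overlap in experiment 1 (9.06% of all targets with aged libraries lower), by a narrow margin, and in experiment 2 the lowest and the highest library were both young. The log2 fold change was -0.54 (SE 0.58) in experiment 1, -0.25 (SE 0.50) in experiment 2 and -0.37 (SE 0.36) over both, with a fold interval of 0.449 to 1.33 and an adjusted p of 1 in edgeR. Without young 2.4 the value was 0.04, the only single library whose removal turned the sign. Like Cdkn2c, Lmnb1 correlated with the proliferation score within age and experiment, at r = 0.921 (permutation p = 0.00621, adjusted 0.155) and rho = 0.662 (permutation p = 0.034, adjusted 0.283), with r = 0.754 without aged 2.4 and young 2.4, 0.682 in experiment 1 and 0.937 in experiment 2. Its level lay at or under the receptor median of the library in 9 of 14 libraries. Among them was every library of experiment 1, where that median ran from 8.53 to 22.6 CPM. The lack of overlap in experiment 1 is thus between levels under that gauge of background.

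**Figure D2:**
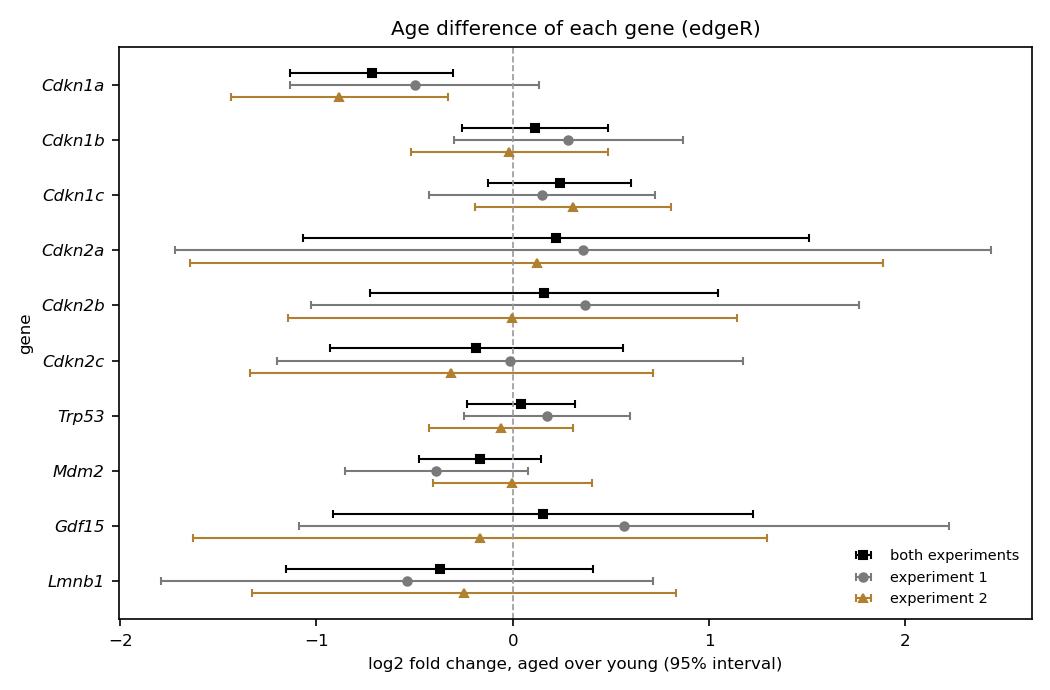
Log2 fold change, aged over young, of each of the 10 genes with its 95% interval, over both experiments and within each. Only the interval of Cdkn1a over both experiments and in experiment 2 lies wholly under 0, and those of Cdkn2a, Cdkn2b and Gdf15 are the widest.

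The 10 genes differed widely in how much they varied among libraries of the same age and experiment. The coefficient of variation was 15.4% for Mdm2, 18.5% for Trp53, 20.5% for Cdkn1b, 23.9% for Cdkn1c and 34.5% for Cdkn1a. It was 68.3% for Cdkn2c and 71% for Lmnb1, against a median of 22.9% over the 11765 targets with at least 5 CPM. The low-count genes Cdkn2b, Gdf15 and Cdkn2a stood at 51.8%, 58.5% and 72.7%.

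Over the 14 libraries, within age and experiment, some members varied together. The highest r were 0.947 between Cdkn2c and Lmnb1 and 0.825 between Cdkn1a and Mdm2, then 0.693 between Cdkn2a and Trp53, 0.647 between Cdkn2a and Cdkn2c and 0.605 between Cdkn1a and Trp53. The lowest was -0.604 between Cdkn1c and Cdkn2a. The values with Cdkn2a rest on few reads, 0 to 29 per library. The libraries share depth, sort and batch for all genes, and these values are a description that was not tested. Among 11764 other targets with at least 5 CPM, those most like Cdkn1a were Mcts2 (r = 0.886), Foxk2 (0.858) and Irgm1 (0.853), and those most like Mdm2 were Tpp2 (0.921), Snx27 (0.899) and Creb1 (0.895). Cdkn2c was most like Ccna2, the S-phase cyclin A2 (0.972), Stil, a centriole gene (0.969), and Nuf2, a kinetochore gene (0.962). Lmnb1 was most like Stil (0.951), Cyp39a1 (0.950) and Cdkn2c (0.947). Trp53 was most like Sfmbt1 (0.916), Fyttd1 (0.910) and Cdc14a (0.906). For Cdkn1b the nearest were Coro1b (0.921), Enoph1 (0.916) and Eml1 (0.895), and for Cdkn1c Stxbp4 (0.904), Ppp4r3b (0.884) and Plcb4 (0.862).

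**Figure D3:**
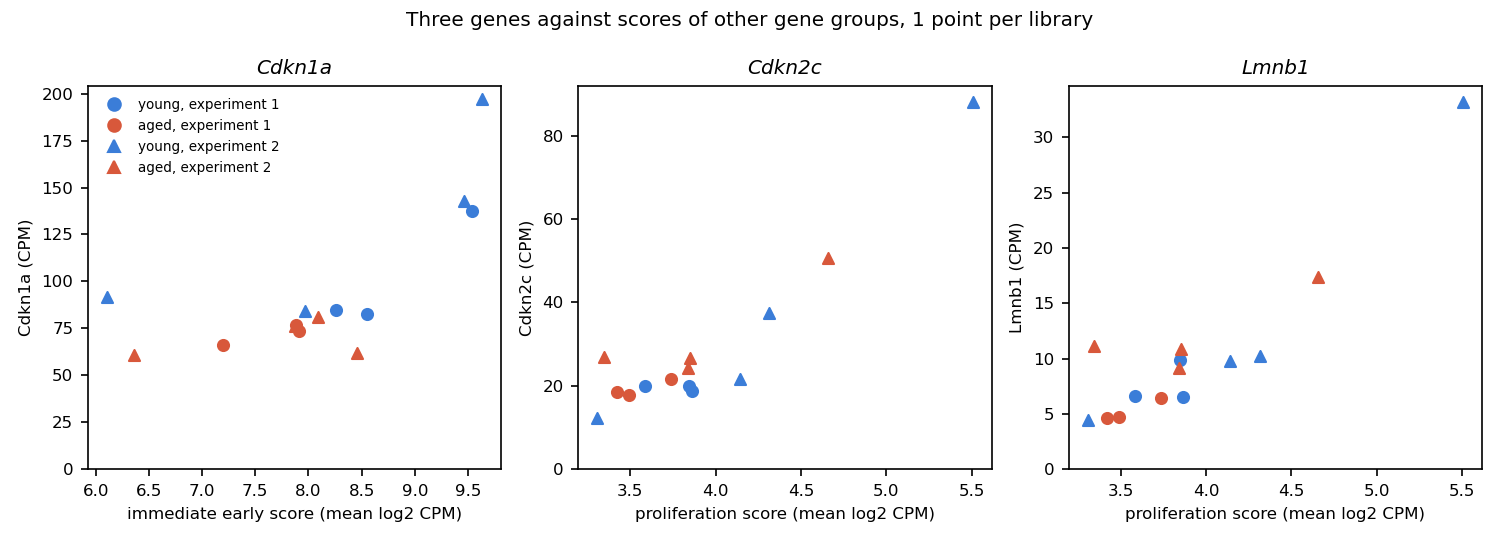
Level of Cdkn1a against the immediate early gene score, and of Cdkn2c and Lmnb1 against the proliferation score, 1 point per library. The 3 libraries with the most Cdkn1a, young 1.1, 2.3 and 2.4, have the 3 highest immediate early scores, and young 2.4 is highest for Cdkn2c, Lmnb1 and the proliferation score.

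The partners of the inhibitors on the way from cyclins to E2F were described next. The lists were chosen for their known roles, with earlier results of these data known. For each list below, the share over all targets tested was 0.224% called by edgeR, 0.955% by DESeq2 and 0.244% by limma-voom. At an unadjusted p under 0.05 in edgeR, 4.41% of all targets were higher in aged cells and 2.98% were lower. Of 23 genes for cyclins, kinases, RB proteins and E2F factors, 0 were called by edgeR (2 higher and 4 lower at an unadjusted p under 0.05, and 0 by limma-voom), with estimates higher in 4 and lower in 19 and a median log2 fold change of -0.21. That median was -0.09 without young 2.4, -0.33 without young 2.2 and -0.32 without aged 2.4. With a term for leukocyte markers it was -0.052, and with a term for immediate early genes it was -0.066. The 4 with the most reads were Cdk4 (-0.03, SE 0.14), the kinase that INK4 proteins bind, the D cyclins Ccnd3 (-0.15, SE 0.11) and Ccnd2 (-0.31, SE 0.16), and the retinoblastoma gene Rb1 (0.24, SE 0.10). DESeq2 called 1, Rbl2, which encodes the RB relative p130 (0.43, SE 0.12, adjusted p = 0.0383), named here after its value was seen. Of 20 proliferation genes 0 were called by edgeR, DESeq2 or limma-voom (0 higher and 2 lower unadjusted), with 2 estimates higher and 18 lower and a median of -0.34. Without young 2.4 that median was -0.07, without aged 2.4 it was -0.54, and with a term for leukocyte markers it was -0.0078. With a term for immediate early genes it was -0.091. Mcm7 (0.02), Cenpa (-0.22), Mcm3 (-0.02) and Mcm6 (-0.21), for the replicative helicase and a centromere histone, had the most reads. The median was -0.27 in experiment 1 and -0.47 in experiment 2, the experiment of the libraries with high Mki67.

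The genes around p53 gave no list with a clear direction. Of 15 regulators of p53 0 were called by edgeR, DESeq2 or limma-voom, and 0 passed an unadjusted p under 0.05, with a median of -0.02. The kinase gene Hipk2 (-0.33, SE 0.17), the deubiquitinase gene Usp7 (-0.08, SE 0.12), Npm1 (0.01, SE 0.13) and the acetyltransferase gene Ep300 (-0.02, SE 0.10) had the most reads. Of 34 tested p53 target genes 0 were called by edgeR (2 higher and 2 lower unadjusted), with 21 estimates higher, 13 lower and a median of 0.05. Plk2 (-0.20, SE 0.28), the apoptosome gene Apaf1 (-0.23, SE 0.12), Trp53inp1 (0.19, SE 0.15) and the death receptor gene Fas (-0.02, SE 0.16) had the most reads. Pltp, a phospholipid transfer gene on this list, was called higher in aged cells by DESeq2 (1.08, SE 0.23, adjusted p = 0.000882) and by limma-voom (1.13, adjusted p = 0.0489), and is named after its value was seen. In edgeR its adjusted p was 0.0863, and 0.0185 with a term for receptor reads (1.14).

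The factors known to act on the inhibitors also gave 0 calls in edgeR. Of 22 upstream regulators of p21, p27, p57 and p15, 1 was higher and 2 were lower at an unadjusted p under 0.05, 0 were called by DESeq2 or limma-voom, and the median was -0.05. The flow-induced factor Klf2 (-0.77, SE 0.32, adjusted p = 0.63 in edgeR) was further from 0 than Id3 (0.10) and Akt1 (-0.09), which were also among those with the most reads. With a term for receptor reads Klf2 was called, at -0.94 and an adjusted p of 0.0384. Of 16 tested Polycomb genes and demethylases, which silence or open the Cdkn2a and Cdkn2b locus, 1 was higher and 3 were lower unadjusted, with 8 estimates on either side and a median of 0.0041. Rnf2 (-0.03), Ezh1 (0.11), Phc2 (-0.24) and Suz12 (-0.16) had the most reads. Cbx7, a Polycomb gene whose product represses Cdkn2a, was called higher in aged cells by DESeq2 alone of the 3 tools (0.76, SE 0.15, adjusted p = 0.000166), and is named after its value was seen. In edgeR its adjusted p was 0.0809, and 0.0164 with the term for receptor reads (0.78).

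Of 47 secreted factors of senescent cells, 35 could be tested and 1 was called by edgeR, Stc1, which encodes stanniocalcin and fell with age. Young libraries held 10.3 ± 9.28 CPM and aged ones 1.25 ± 0.842 CPM (SD, n = 7 each), a log2 fold change of -2.92 (SE 0.54) with an adjusted p of 0.0464. The call did not hold with limma-voom (0 on this list), nor when any 1 of 13 of the 14 libraries, all but young 2.1, was left out. Igfbp7 (-0.02), Igfbp4 (-0.20), Tgfb1 (0.01) and Csf1 (-0.10), binding proteins and growth factors, had the most reads. The estimates of Csf1 had opposite signs in the experiments (-0.77 and 0.40), as had those of Tgfb1 (-0.37 and 0.30), and edgeR called neither difference between the experiments. Over the list they were higher for 16 genes and lower for 19, with a median of -0.02. DESeq2 called 3, the chemokine genes Cxcl1 (-2.18, adjusted p = 0.0181) and Cxcl10 (-1.39, adjusted p = 0.0422) beside Stc1, all lower in aged cells.

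Of 16 tested genes of the nuclear lamina and of senescence chromatin, the surroundings of lamin B1, 0 were called by edgeR, DESeq2 or limma-voom (1 higher and 2 lower unadjusted), with 3 estimates higher, 13 lower and a median of -0.10. Tmpo (-0.21), H2afy (-0.16), the lamin B receptor gene Lbr (-0.24) and Glb1 (-0.06), the lysosomal galactosidase behind the common senescence stain, had the most reads. The list of ATF4 and CHOP stress genes, the company of Gdf15, also holds the immediate early gene Egr1. Of its 11 tested genes 0 were called by edgeR or limma-voom (1 higher and 3 lower unadjusted), with a median of 0.15. Egr1 (-1.46, SE 0.75), Atf4 (-0.46, SE 0.19), Atf3 (-2.50, SE 0.73, adjusted p = 0.414 in edgeR) and Ddit4 (0.17, SE 0.25) had the most reads, and 2 of these are also immediate early genes. DESeq2 called Atf3 (-2.58, adjusted p = 0.0327) and Asns (-1.69, adjusted p = 0.0203), the asparagine synthetase gene.

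**Figure D4:**
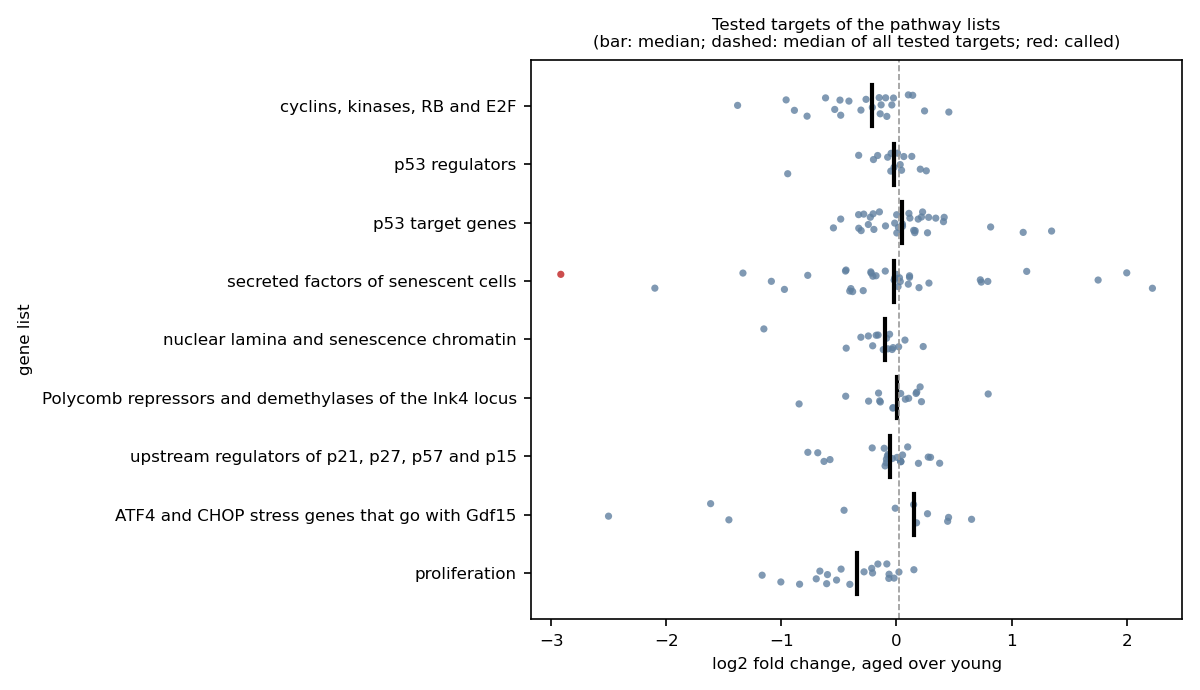
Log2 fold change, aged over young, of each tested gene of the 9 pathway lists, 1 point per gene, with the list median as a bar. Medians run from -0.34 for proliferation to 0.15 for ATF4 and CHOP stress genes, and the 1 point called by edgeR is Stc1.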

How the data were processed

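Libraries were prepared from TRIzol LS extracts with an Ion AmpliSeq mouse transcriptome kit, per the labels' protocols, and each transcript target is read as 1 amplicon. The deposited values are raw read counts per target in 14 files, and the submitters' processing notes name HTSeq 0.6.0 and DESeq2 1.18.1; the sources used here do not name an aligner, genome build, strand setting or treatment of shared reads. The 5 bookkeeping entries (1.24 to 3.04% of reads) were left out. Symbols came from RefSeq (18128 targets with their version, 4324 without) or GENCODE (110); 1368 unmatched targets (0.231 to 1.08% of gene reads) stayed in under their identifiers. Cop1, Rpl5, Rpl11, Hmgb1 and 9 more pathway genes matched no target.

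In R 4.3.3, edgeR 4.0.16 kept 15184 targets (filterByExpr), scaled by TMM (factors 0.9005 to 1.142) and ran the quasi-likelihood test with experiment as a term; a model of 4 means gave the contrasts within experiments. P-values were adjusted over all targets (Benjamini-Hochberg, called under 0.05). DESeq2 1.42.0, limma-voom (limma 3.58.1) and the other alternatives are in the closing section. Correlations used log2 CPM (prior count 2) minus the mean of each age and experiment, with 100000 permutations within those groups, two-sided. Steps were tested on simulated data. There edgeR recovered 4 of 50 changes of 1.5-fold, 19 of 50 of 2-fold, 34 of 50 of 4-fold and 36 of 50 of 8-fold. A gene that was not called may therefore still differ by age. Counting error alone underlies the limit at 0 reads. Amplicon reads carry no molecular identifiers, so reads are not independent molecules.

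The members and lists were chosen with earlier results of these data known. Named were every member, the 4 genes with the most reads of each pathway list and every called one, and the 3 targets most like each member with a mean of at least 5 CPM; 1 gene that this rule takes is not reported here. The immediate early gene list, the p53 element's definition, the term for immediate early genes and the removal of young 2.4 with aged 2.4 were chosen after seeing the data. Il1b, Mmp9 and Tnfrsf1b were also named after seeing the data. Aged 1.1 and aged 1.2, the most alike, still differed by more than sampling noise (chi-square 6.35 per degree of freedom). The other pairs of the same age and experiment ran from 19.55 to 124.3. Since reads are not independent molecules, this value does not show whether aged 1.1 and aged 1.2 are separate mice.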

Additional observations from a re-analysis of the deposited data

Results flagged for a closer look

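In 4 of the 20 groups checked (10 genes in 2 ages, 7 libraries each), the highest library lay further from the next than a fixed share of the group's whole range (0.568). Chance alone reaches that share in about 1 in 20 groups drawn from 1 normal distribution. Each group here pools 2 experiments and some of the genes vary together, so that rate need not hold. All 4 are libraries numbered 2.4, those with the most Mki67 of their ages. Cdkn2c stood at 50.71 CPM in aged 2.4, against 26.9 CPM in the next aged library, and at 88.11 CPM in young 2.4, against 37.5 CPM. Lmnb1 stood at 33.21 CPM in young 2.4, against 10.2 CPM. Trp53 stood at 100.3 CPM in aged 2.4, against 72.9 CPM. Without both libraries, the log2 fold change of Cdkn2c was 0.053 and that of Trp53 -0.0035, neither called by edgeR.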

How the results depend on the processing

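Of the 10 genes, 0 were called over both experiments under every alternative but DESeq2, which called 1 (Cdkn1a, -0.75). Cdkn1a, Cdkn1b, Cdkn1c and Mdm2 kept their sign over both experiments in all alternatives run. The count of called targets, 34, was 143 with DESeq2, 58 with a term for receptor reads, 19 without the experiment term, 11 with aged 1.1 and 1.2 summed, 9 without young 2.4 and aged 2.4, 5 with a leukocyte term and 4 to 29 without 1 library. Same-numbered aged and young libraries had correlations of their deviations from -0.315 to 0.741, over 0.1 in 4 of 7 pairs, and 3 of 7 correlated best with their own number, so the numbers were not taken as pairing the samples. As a replicate block the number left 2 called targets and 0 members, with Cdkn1a at -0.66 (adjusted p = 0.391 in edgeR); within experiment 2 the block gave 0.064 for Gdf15, 0.095 for Lmnb1 and 0.019 for Mdm2. With no scaling beyond library size 29 of 46 called targets were higher in aged cells, against 18 of 34.

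Called genes of the secreted factor list, 1 (Stc1), were 3 with DESeq2 and 0 with summed libraries, with at least 10 reads in 7 libraries, other or no scaling, limma-voom, no experiment term, the replicate block, the immediate early or leukocyte terms and either pair of libraries left out (0 to 1 without 1 library). From 0, the ATF4 list had 2 and the cyclin list 1 with DESeq2; the p53 target list 1 with DESeq2, limma-voom and the receptor term; the Polycomb list 1 with DESeq2, no scaling, the receptor term and without young 2.2 and aged 2.4 (0 to 1 without 1 library); and the upstream list 1 with the receptor term.

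The signs below turned, and the cause was not tested. Over both experiments limma-voom gave -0.0011 for Cdkn2b, 0.062 for Cdkn2c and 0.0025 for Lmnb1; within experiment 2 it gave 0.11 for Cdkn2c, 0.067 for Gdf15, 0.26 for Lmnb1 and 0.033 for Mdm2, and for the difference between experiments 0.56 for Cdkn2a and 0.12 for Cdkn2c. Cdkn2c was 0.19 with the immediate early term and 0.29 with the leukocyte term, which gave 0.056 for Lmnb1. Without young 2.2 and aged 2.4, Cdkn2a was -0.084, Cdkn2b -0.13 and Trp53 -0.12; without young 2.4 and aged 2.4, Cdkn2b was -0.020, Cdkn2c 0.053 and Trp53 -0.0035. Experiment 2 fitted alone gave 0.0082 for Cdkn2b and 0.0020 for Mdm2. Without 1 library, values over both experiments ran from -0.051 to 0.53 for Cdkn2a, -0.11 to 0.34 for Cdkn2b, -0.38 to 0.20 for Cdkn2c, -0.077 to 0.49 for Gdf15, -0.54 to 0.043 for Lmnb1 and -0.073 to 0.096 for Trp53. Within experiment 1 they ran from -0.13 to 0.61 for Cdkn2b and -0.11 to 0.040 for Cdkn2c. Within experiment 2 they ran from -0.18 to 0.061 for Cdkn1b, -0.35 to 0.73 for Cdkn2a, -0.50 to 0.31 for Cdkn2b, -0.65 to 0.44 for Cdkn2c, -0.47 to 0.44 for Gdf15, -0.55 to 0.61 for Lmnb1, -0.14 to 0.12 for Mdm2 and -0.24 to 0.027 for Trp53. For the difference they ran from -0.067 to 0.34 for Cdkn1c, -0.66 to 0.41 for Cdkn2a, -0.81 to 0.12 for Cdkn2b, -0.60 to 0.51 for Cdkn2c and -0.011 to 1.20 for Lmnb1. Few reads limit Cdkn2a, Cdkn2b and Gdf15, with at most 35 reads in any library.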
